A study of Mus musculus with 8 samples.

Results

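The 43 genes described are the interferon receptors, their signalling proteins, cytosolic RNA sensors, antiviral and other interferon-induced genes and the MHC class I pathway. They were chosen by symbol with a rule that uses no measured value, but with earlier results of these data known. All 43 were among the 55335 genes of the deposited count table, and all 43 passed the filter on low counts, which left 17618 genes for testing. Interferons are secreted proteins that put cells into an antiviral state. Type I interferons bind the receptor chains encoded by Ifnar1 and Ifnar2, and interferon gamma binds those encoded by Ifngr1 and Ifngr2. Both receptors act through Janus kinases and STAT transcription factors, which with proteins of the IRF family switch on antiviral genes and the genes that load peptides on MHC class I molecules.

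The measurements are RNA-seq counts from vagal ganglia, where the vagus nerve's sensory neurons have their cell bodies. Wild-type (WT) mice were challenged with HDM (house dust mite, an allergen) or with saline, and ganglia were taken 1.5 h after challenge number 4. There were 4 libraries in each group, each from 6 to 8 ganglia pooled over 3 to 4 mice, so a library is a pool of animals and not 1 animal, and the labels give no strain, sex or age for the mice. Each of the 4 labelled batches holds 1 HDM and 1 saline library with the same replicate number. The comparison asked whether these genes differed between the ganglia of mice challenged with the allergen and those of mice given saline.

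In units of 1000000 counts, library totals were 23.95 to 26.67 in HDM and 26.87 to 31.28 in saline (25.5 ± 1.26 in HDM and 29.7 ± 2.08 in saline, mean ± SD, n = 4 each; 2-sided exact permutation p = 0.0286, the lowest value possible with 70 assignments). Sensory neuron markers (8 genes, among them Snap25, Tubb3 and Scn10a) summed to 6198 to 6623 CPM in HDM and 5912 to 6287 CPM in saline. CPM are counts scaled to a common library size (per 1000000) with TMM factors. In HDM 4 the sympathetic neuron markers Th, Dbh and Slc6a2 summed to 662 CPM, against 222 to 254 CPM in the other HDM libraries and 109 to 283 CPM in saline. In saline 1 the 4 hemoglobin genes summed to 239.6 CPM, against 44.3 to 75.8 CPM in HDM and 71.1 to 74.0 CPM in the other saline libraries. Without HDM 4 and saline 1 together, 1 member passed the test below, as it did with all libraries, and it was the same gene, H2-D1.

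All interferon pathway levels below come from whole ganglia, where fewer cells of a type and less RNA per cell cannot be told apart. Ranked by RPKM, which is CPM per 1000 bases of gene length, the members spanned from B2m, the light chain of MHC class I, at 245 ± 21.4 RPKM in HDM and 254 ± 23.6 RPKM in saline, down to Ifi44, an interferon-induced gene, at 0.380 ± 0.0940 RPKM in HDM and 0.4165 ± 0.0564 RPKM in saline (SD, n = 4 each). Next to B2m came Ifi27, which encodes a small interferon-induced membrane protein, with 83.7 ± 1.78 RPKM in HDM and 83.1 ± 5.76 RPKM in saline. H2-D1 and H2-K1, the heavy chains of classical MHC class I, had 65.0 ± 3.04 and 36.25 ± 1.80 RPKM in HDM, and 54.3 ± 3.625 and 32.6 ± 2.63 RPKM in saline. The class I genes were thus among the members with the most RNA per length, whereas the immunoproteasome subunit Psmb9 (0.962 ± 0.107 RPKM in HDM, 1.07 ± 0.212 RPKM in saline) lay near the low end. The antiviral GTPase gene Mx1 was also near the low end, at 0.6765 ± 0.345 RPKM in HDM and 0.628 ± 0.227 RPKM in saline.

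**Figure D1:**
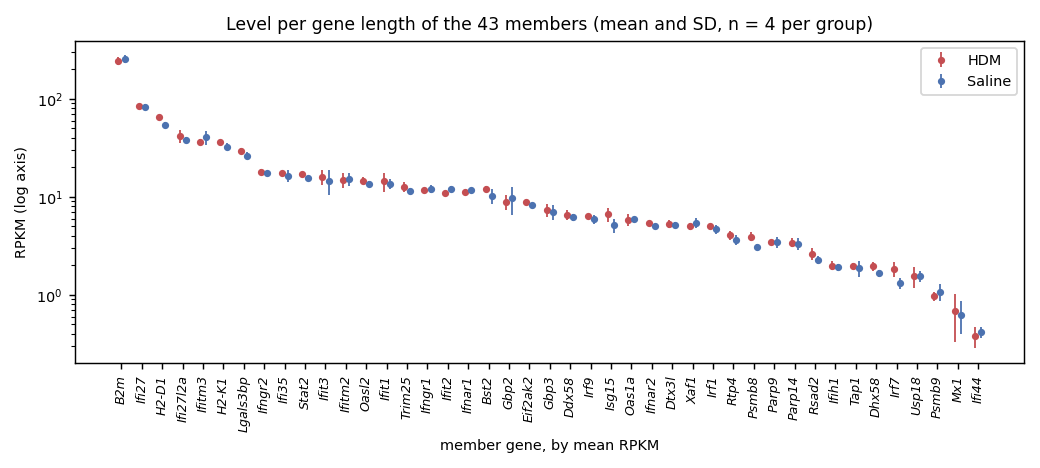
Mean RPKM (log axis) with SD over the 4 HDM and the 4 saline libraries for each of the 43 members, in order of their mean level. The levels run from B2m (245 RPKM in HDM, 254 RPKM in saline) to Ifi44 (0.380 RPKM in HDM, 0.4165 RPKM in saline).

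Genes that answer to type I interferon often carry an interferon-stimulated response element (ISRE) near their start, where STAT and IRF proteins bind. RefSeq promoter windows (GRCm38.p6, from 250 bases before to 50 bases after the start) were at hand for 35 of the 43 members, in 40 windows. The ISRE letters searched were GAAA, any 2 bases and GAAA again, or on the other strand TTTC, any 2 bases and TTTC, overlapping matches included. They occurred in 15 of these 40 windows (37.5%), against 3.44% of all 32851 windows, each for a different member. The letters TTCNNNGAA, which read the same on both strands and are the core of the gamma-activated site, occurred in 10 windows (25%), against 8.30% of all windows. The ISRE letters were found in windows of Stat2, Isg15, Bst2, Rsad2, Ifit1, Ifit3, Ifitm2, Ifitm3, Gbp2, Gbp3, Oas1a, Ddx58, Ifih1, Eif2ak2 and B2m, and those of the gamma-activated site in windows of Irf1, Psmb8, Ifit2, Ifi35, Ifnar1, Ifnar2, Bst2, Eif2ak2, Ifitm3 and Oas1a. These matches describe letters and not binding.

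The stretches below hold the ISRE letters in the 6 members with the smallest p whose ISRE letters lie before the start. Capitals mark those letters, overlapping matches run together, and each stretch is written 5′ to 3′ on the strand that RefSeq gives for the gene. For 5 of the 6, words of 20 bases from the window were found in the gene's GENCODE transcripts as printed and never reversed. The Stat2 window shares no such word with its transcripts in either direction, so its orientation rests on the RefSeq entry alone. They lie at chr10:128270251-128270310 (plus strand) for Stat2, chr4:156200850-156200921 (minus) for Isg15, chr8:71537562-71537627 (minus) for Bst2, chr12:26456538-26456597 (minus) for Rsad2, chr19:34583348-34583441 (plus) for Ifit3 and chr2:122147523-122147582 (plus) for B2m. Isg15 had 3 overlapping matches, Bst2 2 overlapping ones and Ifit3 2 separate ones.
Stat2: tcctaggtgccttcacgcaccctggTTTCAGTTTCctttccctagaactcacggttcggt
Isg15: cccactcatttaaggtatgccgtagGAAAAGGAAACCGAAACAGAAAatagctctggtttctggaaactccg
Bst2: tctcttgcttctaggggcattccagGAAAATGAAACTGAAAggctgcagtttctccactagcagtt
Rsad2: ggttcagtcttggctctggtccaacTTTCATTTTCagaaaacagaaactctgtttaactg
Ifit3: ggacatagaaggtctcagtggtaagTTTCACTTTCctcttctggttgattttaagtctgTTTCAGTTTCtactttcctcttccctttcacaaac
B2m: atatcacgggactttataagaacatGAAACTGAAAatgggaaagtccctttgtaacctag
The windows of H2-D1, Psmb8 and Irf7, the 3 members with the smallest p, held none of the ISRE letters searched. Those of H2-D1 and Psmb8 start inside the annotated gene (at 35262844 and 34197945, against gene starts of 35262730 and 34197721). The windows of Irf9 and Psmb9, which also held none, start inside the gene too (at 55603735 and 34187580, against gene starts of 55603571 and 34187764). Bases before these gene starts were therefore not searched.

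H2-D1 was the only member that passed the test of HDM against saline, and it was higher in HDM. Thus 1 of 43 members was called higher and 0 lower (edgeR quasi-likelihood test, Benjamini-Hochberg adjusted p under 0.05 over all tested genes), against 1.38% of all tested genes called, 1.23% higher and 0.159% lower. At an unadjusted p under 0.05 there were 8 members (18.6%), against 18.1% of all tested genes. The members' log2 fold changes ran from −0.15 to 0.50 with a median of 0.084, and 30 of 43 were above 0 (69.8%), against a median of −0.0055 and 48.5% above 0 over all tested genes. The CPM of the 2 groups did not overlap for 3 members, all with HDM above (6.98%, against 6.25% of all tested genes), and 0 members had HDM below (4.39% of all tested genes). HDM was higher in 4 of 4 batches for 8 members (18.6%, against 15.6% of all tested genes) and lower in 4 of 4 for 1 (2.33%, against 12.8%).

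Other settings called 0 to 4 members. DESeq2 called 4, H2-D1, Psmb8, Irf7 and Stat2 (4.94% of all tested genes), the fit with the replicate block 2, H2-D1 and Irf7 (4.05%), and the fit without the filter on low counts 3, H2-D1, Psmb8 and Irf7 (2.26%). H2-D1 alone was called by limma-voom (1.21%), with RLE size factors (1.11%), with a filter of 1 CPM in 4 libraries (1.43%), without saline 1 (1.18%) and without HDM 4 and saline 1 together (0.762%). At an adjusted p under 0.10 there were 3 members (4.02%), and without HDM 3 there were 2 (2.1%). With an offset for GC content 0 members were called, alone (0% of all tested genes) or with the block (0.153%). At an unadjusted p under 0.05 there were 6 members with the offset (14%, against 11.7% of all tested genes) and 7 with offset and block (16.3%, against 14%). The members' median log2 fold change was 0.081 with the offset, against 0.084 without it. With the offset 31 of 43 members were above 0 (72.1%, against 48.4% of all tested genes).

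**Figure D2:**
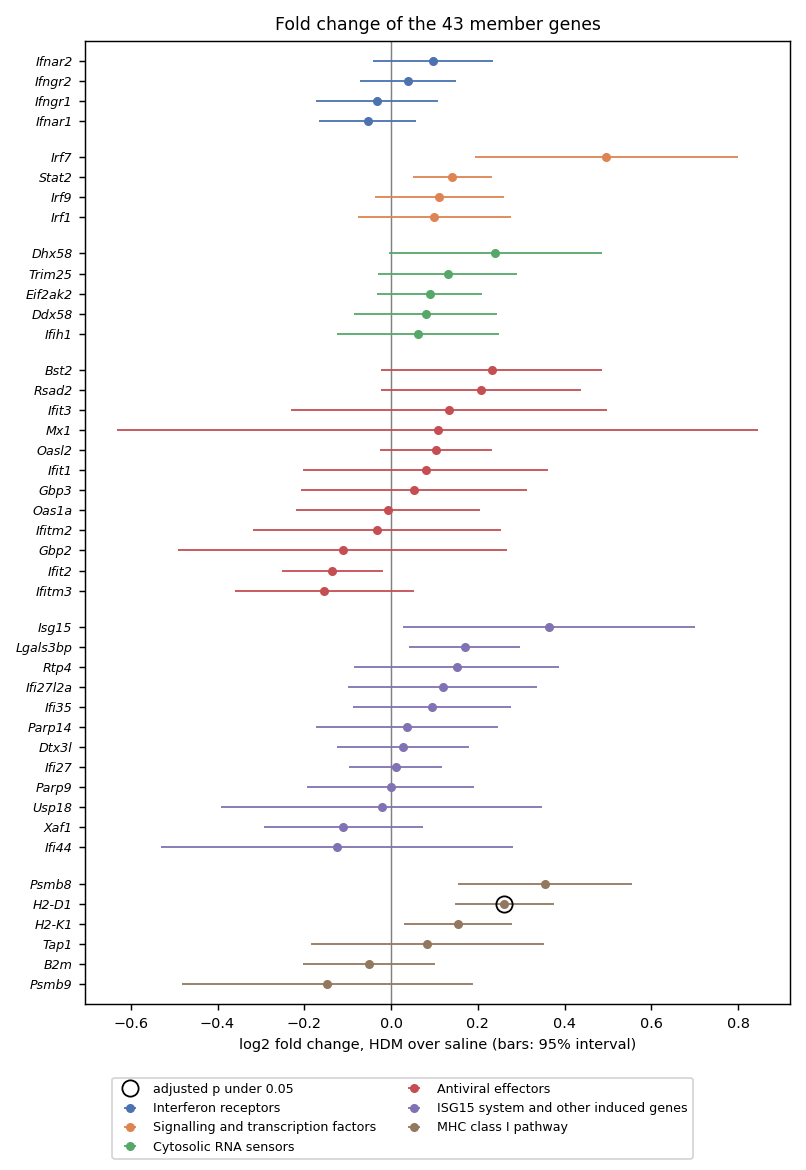
Log2 fold change of HDM over saline for each of the 43 members, by role, with its 95% interval from the edgeR fit, and a black ring around the member with an adjusted p under 0.05. H2-D1 (0.26) is the ringed gene, and the points run from −0.15 for Ifitm3 to 0.50 for Irf7.

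The sign of the members' median was not the same in all batches. The median log2 ratio of HDM to saline over the 43 members was 0.15 in batch 1, −0.00555 in batch 2, −0.025 in batch 3 and 0.24 in batch 4, with 30, 20, 20 and 39 members higher in HDM. Over all tested genes the medians of the same batches lay between −0.0033 and 0.015. The median was above 0 within batches 1 and 4 and slightly below 0 within batches 2 and 3. In the group comparison it was 0.011 without HDM 1 and 0.021 without saline 4, with 24 of 43 members above 0 in each case, and 0.085 without HDM 4 and saline 1 together.

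The interferon receptors lay close to 0. Ifngr2, the receptor chain with the most RNA per length, had 71.5, 68.7, 61.9 and 69.3 CPM in HDM 1 to 4, against 64.3, 67.3, 64.0 and 68.7 CPM in saline 1 to 4. The groups overlapped, and HDM 3 was the lowest of all 8 (log2 fold change 0.038, 95% interval −0.072 to 0.15). Ifnar1 and Ifngr1 had log2 fold changes of −0.054 and −0.032, and Ifnar2 had 0.096. For all 4 receptors the interval lay within −0.17 and 0.23, and the edgeR adjusted p was 0.455 or above.

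Of the 4 signalling genes 0 passed over all genes in edgeR (2 at an unadjusted p under 0.05, 2 called by DESeq2, 0 by limma-voom). Of all tested genes, 1.38% passed in edgeR and 18.1% had an unadjusted p under 0.05, while DESeq2 called 4.94% and limma-voom 1.21%. Irf7, an IRF transcription factor that amplifies the type I interferon response (ENSMUSG00000025498, GRCm38 chromosome 7, 141262706 to 141266481, minus strand), had 7.91, 6.43, 5.44 and 8.00 CPM in HDM 1 to 4, against 5.34, 5.48, 4.14 and 4.74 CPM in saline 1 to 4. HDM was above saline in 4 of 4 batches, but HDM 3 lay below saline 2 (0.50 ± 0.141 on the log2 scale, estimate ± SE, edgeR adjusted p = 0.0939). With the batch as a block it passed (0.49, edgeR adjusted p = 0.0499, where 3.01% of all tested genes were called higher), as it did in DESeq2 (adjusted p = 0.0232), without HDM 3 (0.60, edgeR adjusted p = 0.0380) and without the filter on low counts (0.48, edgeR adjusted p = 0.0329). With the block and a correction for GC content it did not (adjusted p = 0.161). The gene overlaps Phrf1 on the opposite strand, so reads of the 2 may have been counted together.

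Stat2, the STAT protein that joins Irf9 downstream of the type I receptor (ENSMUSG00000040033, chromosome 10, 128270559 to 128292849, plus strand), had 102.6, 105.4, 97.2 and 103.8 CPM in HDM, against 92.1, 95.9, 90.4 and 92.4 CPM in saline. Every HDM library lay above every saline library, by little (0.14 ± 0.0422 on the log2 scale, estimate ± SE, edgeR adjusted p = 0.107), and the within-batch log2 ratios were alike, at 0.16, 0.14, 0.10 and 0.17. DESeq2 called it (adjusted p = 0.0485). Irf9 and Irf1 had log2 fold changes of 0.11 and 0.10. In both, saline 4 was the lowest library, at 27.8 CPM for Irf9, against 30.9 to 35.6 CPM in the other 7, and at 15.4 CPM for Irf1, against 19.0 to 20.8 CPM.

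The RNA sensors recognise viral RNA in the cytosol and start interferon production or stop translation. All had positive log2 fold changes between 0.062 and 0.24. In edgeR 0 of 5 passed (0 at an unadjusted p under 0.05, against 18.1% of all tested genes, and 0 in DESeq2 and limma-voom). Dhx58, which encodes the sensor LGP2, had 6.15, 6.93, 5.48 and 7.02 CPM in HDM and 5.45, 5.45, 5.92 and 4.87 CPM in saline (0.24 ± 0.114 on the log2 scale, estimate ± SE, edgeR adjusted p = 0.284), with HDM higher in 3 of 4 batches. Trim25, a ubiquitin ligase that acts on the sensor RIG-I, had 76.2, 67.4, 63.8 and 82.6 CPM in HDM and 60.4, 67.7, 70.4 and 66.5 CPM in saline (log2 fold change 0.13). Its HDM values were above saline in batches 1 and 4 and below it in batches 2 and 3. Ddx58, which encodes RIG-I, Ifih1, which encodes MDA5, and Eif2ak2, the RNA-activated kinase PKR, had 0.080, 0.062 and 0.089.

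Of the 12 antiviral effectors 0 passed in edgeR, and 0 in DESeq2 and limma-voom. At an unadjusted p under 0.05 there was 1 (8.33%, against 18.1% of all tested genes). Among the effectors 7 had a positive and 5 a negative log2 fold change, and the median was 0.067. Ifit2, whose family binds foreign RNA and blocks its translation, was the one with an unadjusted p under 0.05, and it was lower. It had 45.8, 43.1, 40.9 and 43.2 CPM in HDM, against 46.7, 48.5, 50.5 and 44.3 CPM in saline (−0.14 ± 0.0539 on the log2 scale, estimate ± SE, edgeR adjusted p = 0.209). HDM lay below saline in 4 of 4 batches, and HDM 1 lay above saline 4. After the GC correction its value was −0.060.

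Bst2, which encodes tetherin, a protein that holds budding virus at the cell surface, had 10.8, 9.98, 10.5 and 11.8 CPM in HDM and 10.6, 10.6, 7.94 and 7.63 CPM in saline (0.23 ± 0.118 on the log2 scale, estimate ± SE, edgeR adjusted p = 0.318). Saline 3 and 4 stood below the other 6 libraries. Rsad2, which encodes the antiviral enzyme viperin, had 13.6, 11.3, 10.1 and 10.6 CPM in HDM and 10.4, 10.9, 9.47 and 8.76 CPM in saline (0.21, SE 0.107, edgeR adjusted p = 0.325), with HDM higher in 4 of 4 batches. Ifitm3, a membrane protein that hinders entry of viruses and the effector with the most RNA per length, had 26.3, 22.7, 25.03 and 24.95 CPM in HDM and 33.4, 28.6, 24.5 and 23.7 CPM in saline. Saline 1 and 2 were the highest libraries, HDM was above saline in batches 3 and 4, and the log2 fold change was −0.15. Ifitm2 had −0.032, Oas1a, an oligoadenylate synthetase that senses double-stranded RNA, −0.0069, its relative Oasl2 0.10 and the guanylate-binding protein gene Gbp3 0.054.

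Among the other interferon-induced members 0 of 12 passed in edgeR, and 0 in DESeq2 and limma-voom. At an unadjusted p under 0.05 there were 2 (16.7%, against 18.1% of all tested genes). In this group 8 were above and 4 below 0, and the median log2 fold change was 0.033. Isg15, a ubiquitin-like protein that is conjugated to other proteins (chromosome 4, 156199455 to 156200796, minus strand), had 4.98, 4.84, 3.54 and 5.21 CPM in HDM, against 4.05, 4.14, 3.35 and 2.89 CPM in saline. HDM was higher in 4 of 4 batches, but HDM 3 lay below saline 1 and 2 (0.36 ± 0.157 on the log2 scale, estimate ± SE, edgeR adjusted p = 0.241). Usp18, the protease that removes Isg15 from proteins, had −0.022, and HDM was higher than saline in batches 1 and 4. Lgals3bp, a secreted glycoprotein, had 85.9, 82.6, 78.8 and 89.3 CPM in HDM and 67.7, 76.2, 73.2 and 82.0 CPM in saline (0.17, SE 0.0595, edgeR adjusted p = 0.158), with HDM higher in 4 of 4 batches and HDM 3 below saline 4. After the GC correction it had 0.081.

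Ifi27, the member of this group with the most RNA per length, had 125.6, 119.7, 124.1 and 121.6 CPM in HDM and 121.5, 133.5, 118.9 and 113.5 CPM in saline. The HDM values lay inside the saline range, and its 95% interval ran from −0.097 to 0.12 on the log2 scale. Parp9 and Dtx3l, whose proteins form a complex and whose genes overlap each other on opposite strands, had −0.00080 and 0.028. Parp14, Rtp4, Ifi35 and Ifi27l2a lay between 0.038 and 0.15, and Xaf1 and Ifi44 had −0.11 and −0.12.

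The MHC class I pathway held the member that passed, 1 of 6 in edgeR and limma-voom (16.7%, against 1.38% and 1.21% of all tested genes). At an unadjusted p under 0.05 there were 3 (50%, against 18.1% of all tested genes), and DESeq2 called 2 (4.94% of all tested genes). In this group 4 were above and 2 below 0. The median log2 fold change was 0.12, and 0.058 with 5 above 0 after the GC correction. That correction also lowered the median of the signalling genes, from 0.13 to 0.11. It raised the medians of the receptors (0.0032 to 0.011), RNA sensors (0.089 to 0.13), antiviral effectors (0.067 to 0.10) and other interferon-induced members (0.033 to 0.052). H2-D1 (ENSMUSG00000073411, chromosome 17, 35262730 to 35267499, plus strand) had 166.6, 160.3, 164.9 and 178.7 CPM in HDM 1 to 4, against 151.6, 142.6, 129.9 and 135.7 CPM in saline 1 to 4. Every HDM library lay above every saline library. It averaged 167.6 ± 7.84 CPM in HDM and 139.9 ± 9.35 CPM in saline (SD, n = 4 each), and rose 1.20-fold (0.26 ± 0.0530 on the log2 scale, estimate ± SE, edgeR adjusted p = 0.0336), with within-batch log2 ratios of 0.14, 0.17, 0.34 and 0.40. It also passed with the batch as a block (adjusted p = 0.0211) and without HDM 4 and saline 1 together (0.27, adjusted p = 0.0324). The value fell to 0.18 after the GC correction (edgeR adjusted p = 0.189). It lost the call without HDM 1, HDM 2, HDM 4, saline 2, saline 3 or saline 4 (log2 fold changes 0.23 to 0.28, edgeR adjusted p 0.0546 to 0.133), and without any 1 of the 4 batches (0.21 to 0.30, edgeR adjusted p 0.0648 to 0.160).

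The other classical heavy chain, H2-K1 (chromosome 17, 33996017 to 34000347, minus strand), had 107.9, 99.98, 105.5 and 112.7 CPM in HDM, against 106.7, 94.95, 92.4 and 88.8 CPM in saline (0.15 ± 0.0580 on the log2 scale, estimate ± SE, edgeR adjusted p = 0.184). HDM was higher in 4 of 4 batches, and saline 1 lay among the HDM libraries. H2-D1, H2-K1 and the nonclassical class I genes are near-identical in long stretches, so reads may have been split or dropped between them and both values are uncertain. B2m, whose product pairs with all of these heavy chains, had 215.8, 184.8, 214.4 and 228.0 CPM in HDM and 248.1, 206.8, 204.3 and 214.5 CPM in saline. It was lower in HDM in batches 1 and 2 and higher in batches 3 and 4. Its log2 fold change was −0.051 (95% interval −0.20 to 0.10), and 0.026 after the GC correction. B2m overlaps Patl2 on the opposite strand.

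Psmb8, an immunoproteasome subunit that alters which peptides are cut (ENSMUSG00000024338, chromosome 17, 34197721 to 34201454, plus strand), had 14.9, 12.3, 11.9 and 13.9 CPM in HDM, against 10.8, 11.1, 10.1 and 9.41 CPM in saline. Every HDM library lay above every saline library (log2 fold change 0.35, SE 0.0931), but the edgeR adjusted p was 0.0736, and 0.0155 in DESeq2. Without the filter on low counts edgeR also called it (0.34, adjusted p = 0.0404). Psmb8 overlaps Gm20496 on the opposite strand, so reads of both genes may have been counted together. For Psmb9, another immunoproteasome subunit, HDM was higher in 1 of 4 batches (log2 fold change −0.15, SE 0.156), and that gene overlaps Tap1 on the opposite strand. Tap1 had 0.084.

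**Figure D3:**
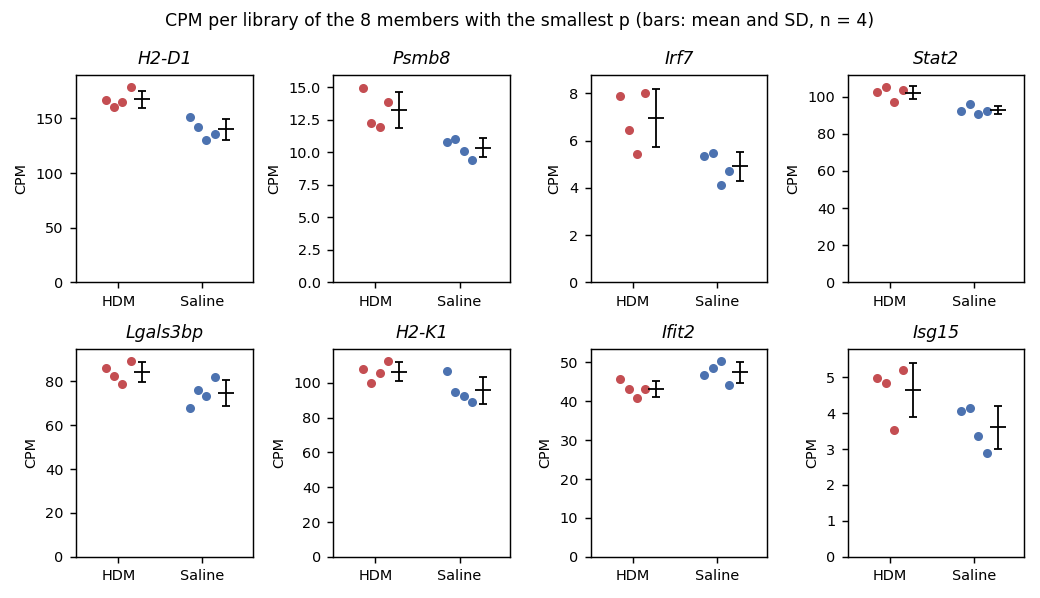
CPM in each of the 4 HDM and 4 saline libraries (points, replicates 1 to 4 from left to right) with mean and SD (bars) for the 8 members with the smallest p. The groups do not overlap for H2-D1, Psmb8 and Stat2, and overlap by 1 or more libraries for Irf7, Lgals3bp, H2-K1, Ifit2 and Isg15.

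**Figure D4:**
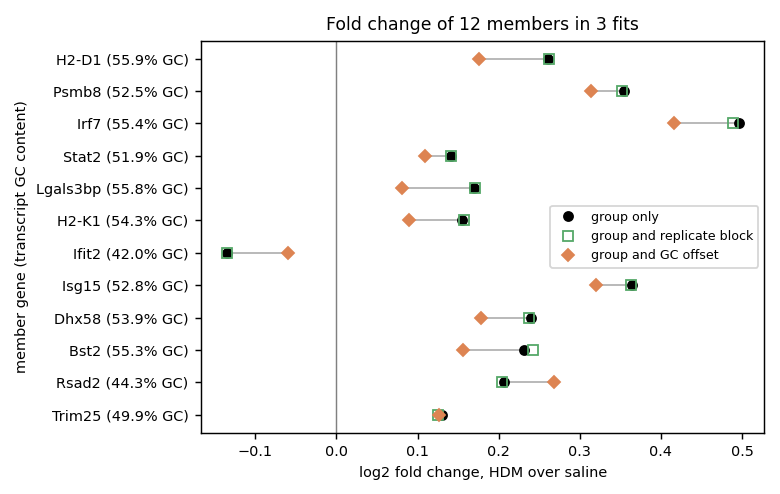
Log2 fold change of HDM over saline for the 12 members with the smallest p, from the fit with group only (black), with the replicate block (green squares) and with the GC offset (orange), with the GC content of the longest transcript beside each name. The block leaves values in place (H2-D1 0.26 and 0.26), whereas the GC offset takes H2-D1 to 0.18 and Ifit2 to −0.060.

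Single libraries stood high or low for many members at once. Saline 4 held the lowest value of 20 of the 43 members (46.5%), against 18.1% of all tested genes, and the highest of 0. HDM 1 held the highest of 12 (27.9%, against 13.5% of all tested genes) and HDM 4 of 11 (25.6%, against 14.0%), while HDM 3 held the highest of 0 and the lowest of 8 (18.6%, against 8.96%). Relative to each gene's mean over the 8 libraries, the median member stood at 0.12 on the log2 scale in HDM 1, 0.041 in HDM 2, −0.096 in HDM 3 and 0.058 in HDM 4, and at 0.019, 0.036, −0.052 and −0.17 in saline 1 to 4. The medians of all tested genes lay between −0.0093 and 0.0072.

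Of the 6 role groups the antiviral effectors had the highest median biological coefficient of variation in the fit (0.117, against 0.0821 over all tested genes), and 4 examples from them were chosen after their values were seen. Mx1 had 3.43, 3.88, 1.15 and 1.77 CPM in HDM and 2.80, 3.25, 2.19 and 1.27 CPM in saline, so the libraries spread widely within both groups. Its coefficient of variation was 0.328. Ifit3 had 34.4, 28.2, 23.1 and 26.4 CPM in HDM and 29.6, 32.5, 23.5 and 16.5 CPM in saline, and Ifit1 had 45.1, 43.4, 26.4 and 38.3 CPM in HDM and 32.3, 41.2, 37.8 and 33.6 CPM in saline. Gbp2, a guanylate-binding protein, had 27.0, 18.9, 19.8 and 24.2 CPM in HDM and 23.6, 35.3, 20.7 and 17.5 CPM in saline, with saline 2 highest. Within the HDM group HDM 1 was high and HDM 3 low for Mx1, Ifit1 and Ifit3, and saline 4 was low for Mx1, Ifit3 and Gbp2, and 1 library set the sign of Gbp2, which had a log2 fold change of −0.11, and 0.13 without saline 2. Ifit3 and Oas1a have close copies in tandem, Ifit3b and Oas1g, with rows of their own.

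**Figure D5:**
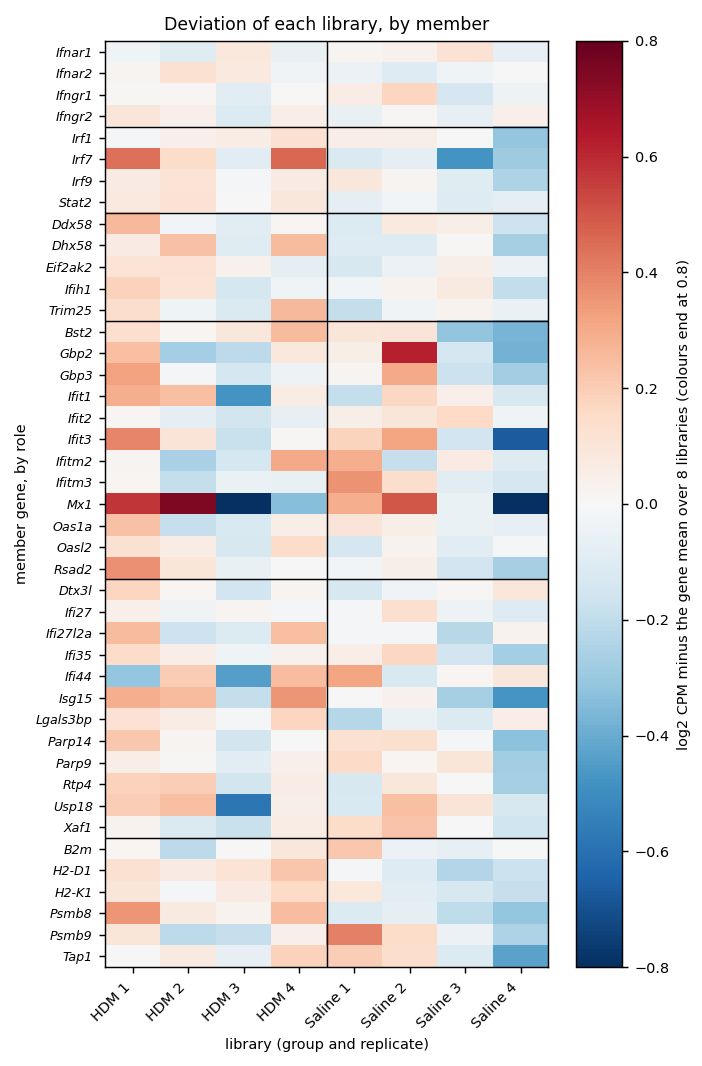
Log2 CPM of each library minus the gene's mean over all 8 libraries, for the 43 members in rows by role and the libraries in columns, HDM left of saline. The blue column of saline 4 (median −0.17) and the red one of HDM 1 (median 0.12) run through most roles, and the receptors in the top rows are pale.

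The summed CPM of each immune cell list was below those of the sensory neuron, Schwann cell and satellite glia lists, over lists of unlike length. Macrophage markers (10 genes, all tested) summed to 85.55 to 110.7 CPM in HDM and 83.95 to 148.7 CPM in saline, with saline 1 highest and saline 4 lowest. T and NK cell markers (6 genes) summed to 0.502 to 0.7995 CPM in HDM and 0.389 to 1.33 CPM in saline. B cell markers (4 genes) summed to 0.711 to 1.47 CPM in HDM and 0.682 to 1.99 CPM in saline. Monocyte and neutrophil markers (6 genes, 1 tested) summed to 2.04 to 5.94 CPM in HDM and 2.98 to 6.63 CPM in saline. Over all libraries together, Ly6g had 1 count, Ly6c2 46, Plac8 56, S100a8 96, S100a9 139 and Ccr2 505. The 6 dendritic cell markers summed to 26.43 ± 0.7905 CPM in HDM and 23.09 ± 1.738 CPM in saline (SD, n = 4 each), with every HDM library above every saline library, but most of this sum was Bst2, itself a member, and Flt3, while Xcr1, Clec9a and Itgax reached at most 0.419 CPM in any library and Xcr1 was at 0 in HDM 1 and HDM 4. Siglech, also on the list, had the opposite sign, with 0.774 ± 0.220 CPM over the HDM libraries, against 0.967 ± 0.348 CPM over the saline ones (SD; −0.32 on the log2 scale, edgeR adjusted p = 0.609). Endothelial markers (6 genes) summed to 82.9 to 94.9 CPM in HDM and 74.9 to 112.7 CPM in saline, fibroblast markers (4 genes) to 484 to 541 CPM in HDM and 539 to 768 CPM in saline, Schwann cell markers (4 genes) to 2293 to 2514 CPM in HDM and 2366 to 2910 CPM in saline, and satellite glia markers (5 genes) to 2489 to 2812 CPM in HDM and 2264 to 2805 CPM in saline. By edgeR 1 Schwann cell and 1 satellite glia marker were called, both lower in HDM, and 0 of the macrophage, endothelial, fibroblast and dendritic cell markers. The part of these cell types in the members' values was not tested.

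The interferon genes themselves were all but absent from the counts. Of 21 interferon genes, 20 had 0 counts in all 8 libraries, which allows up to 0.0956 to 0.126 CPM in a library, and Ifng had 1 count in HDM 2 and 1 in saline 1. That limit is 3 counts in a library and covers counting error only.

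Further genes of the pathway, from lists fixed with earlier results of these data known, gave 0 calls among 116 tested genes in edgeR and limma-voom, and 1 in DESeq2, which called 4.94% of all tested genes. At an unadjusted edgeR p under 0.05 there were 7 of the 116 (6.03%), against 18.1% of all tested genes. Of 13 further signalling genes 0 passed (0 at an unadjusted p under 0.05), with Socs3, a feedback inhibitor of cytokine receptors, at a log2 fold change of 0.29, Jak2 at −0.092, Irf8 at 0.40 and Irf3 at 0.11. Of 13 nucleic acid sensing genes 11 were tested and 0 passed (1 at an unadjusted p under 0.05). Tlr3, the endosomal receptor of double-stranded RNA, had −0.21, Myd88 0.19, Mavs, the mitochondrial adaptor of the RNA sensors, −0.17 and Adar, which edits double-stranded RNA, 0.10.

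Of 64 further interferon-induced genes 62 were tested and 0 passed (5 at an unadjusted p under 0.05, 8.06% against 18.1% of all tested genes). The log2 fold changes had 34 above and 28 below 0 and a median of 0.0093. The smallest p values pointed both ways: the chemokine gene Cxcl11 had −0.48 and Phf11b −0.46, with every HDM library below every saline library, and Znfx1 and Daxx had 0.18 and 0.22, with every HDM library above (edgeR adjusted p 0.106 to 0.158 for the 4). Of the 62 genes, 2 had HDM above without overlap (3.23%, against 6.25% of all tested genes) and 2 had HDM below (3.23%, against 4.39%). Of 22 further class I pathway genes 21 were tested and 0 passed (1 at an unadjusted p under 0.05), with 17 above 0 and a median of 0.079, which was 0.025 with 14 above 0 after the GC correction. Calr, a chaperone that helps to fold class I heavy chains, had 0.14 (edgeR adjusted p = 0.130, and 0.0413 in DESeq2), its relative Canx 0.079, and the nonclassical genes H2-Q4 and H2-T23 each had 0.23.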

How the data were processed

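The deposited table holds raw counts per gene, not normalised; per the submitters' processing notes they were made with featureCounts on GRCm38 (mm10). Per the labels' protocols, libraries were made with a stranded mRNA kit and read as 50 bp pairs on an Illumina NovaSeq. For the aligner, the versions and the use of strand in counting, the entry is "not given in the sources used here", so reads of genes that overlap on opposite strands (14 of the 43 members) may have been counted together. Columns were matched to samples by the names the labels give. Symbols came from GENCODE M21 (55154 of 55335 IDs matched). GENCODE gave the same gene span for 42 of the 43 members, all but Isg15.

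Genes kept by filterByExpr were scaled by TMM and tested with edgeR 4.0.16 (R 4.3.3), group as the only term, 2-sided, all 8 libraries. Fold changes are HDM over saline, SE is the log2 fold change over the root of F, and intervals are 95% intervals from the same fit. The fit was checked on simulated counts. Alternatives were RLE size factors, no filter, 1 CPM in 4 libraries, DESeq2 1.42.0, limma-voom 3.58.1, the replicate block, a GC offset (natural spline, 4 degrees of freedom, on the longest transcript's GC content, known for all 43 members), both together, a threshold of 0.10, and leaving out each library or batch. DESeq2 gave no adjusted p for Isg15, Usp18, Ifi44, Mx1 and Psmb9. Leaving out HDM 4 with saline 1 was chosen after seeing the data. Log2 ratios within batches used CPM + 0.1.

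The batch label equals the replicate number, so it pairs the libraries. Across genes, the deviation of an HDM library from its group mean had a correlation of −0.048 to 0.039 with that of its saline partner. Members and lists were chosen with earlier results of these data known. Values in every library are given for the 12 members with the smallest p and for the member of each role with the highest RPKM, and up to 4 genes with the smallest p for each further list. Isoforms and protein sequences were not used here.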

Additional observations from a re-analysis of the deposited data

Results flagged for a closer look

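In 86 checks, 1 per member and group of 4 libraries, 2 were flagged because 1 library stood apart from the others of its group. Chance flags about 1 in 20 groups, so the 2 flags were fewer than chance gives. The check sets the gap against the range of the 4 libraries, so a small gap is flagged where the others lie close together. Ifngr1, a receptor chain of interferon gamma, had 31.67 CPM in HDM 3, against 33.68 to 34.08 CPM in the other HDM libraries. Irf1, an IRF transcription factor induced by interferon gamma, had 15.38 CPM in saline 4, against 19.09 to 19.84 CPM in the other saline libraries. Saline 4 was also the library with the lowest value of 20 of the 43 members.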

How the results depend on the processing

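Under the settings run 0 to 4 of the 43 members were called. H2-D1 kept a positive log2 fold change in all settings, as did members that no setting called, among them H2-K1, Isg15 and Bst2. In edgeR the members called numbered 1 with all libraries (1.38% of all tested genes), with RLE size factors (1.11%) and with a filter of 1 CPM in 4 libraries (1.43%). There were 3 without the filter on low counts (2.26%), 3 at an adjusted p under 0.10 (4.02%) and 2 with the replicate block (4.05%). With the GC offset, alone or with the block, there were 0. At an unadjusted p under 0.05 there were 6 members with the offset (14%, against 11.7% of all tested genes) and 7 with both (16.3%, against 14%). As separate methods, limma-voom called 1 member (1.21% of all tested genes) and DESeq2 4 (4.94%). Leaving out 1 library or batch gave 0 to 2 members, and 2 without HDM 3. Over all genes the calls numbered 244, against 709 at an adjusted p under 0.10, 722 without the filter, 871 by DESeq2, 713 with the replicate block, 0 with the GC offset, 27 with block and GC offset, 135 without HDM 4 and saline 1, and 0 to 376 without 1 library or batch. In units of 1000000 counts, library totals in HDM minus saline differed by −4.17, and by −5.11 to −3.64 without 1 library, where the exact permutation p was 0.0571 without any HDM library.

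The log2 fold changes below changed sign under the settings named, and the cause was not tested. B2m had 0.026 with the GC offset and 0.027 with block and GC offset. Ifi27 had −0.0026 without the filter, −0.028 with the GC offset and −0.027 with block and GC offset. Parp9 had 0.011 by limma-voom, 0.0056 with the block, 0.029 with the GC offset, 0.035 with both and 0.039 without HDM 4 and saline 1, where Oas1a had 0.0091, Dtx3l −0.0090 and H2-Aa 0.058. Without 1 library or batch the log2 fold change ran from −0.10 to 0.0093 for B2m, −0.45 to 0.14 for Ciita, −0.023 to 0.15 for Ddx58, −0.062 to 0.087 for Dtx3l, −0.28 to 0.20 for Gbp2 and −0.051 to 0.20 for Gbp3. It ran from −0.35 to 0.013 for H2-Aa, −0.025 to 0.067 for Ifi27, −0.29 to 0.044 for Ifi44, −0.058 to 0.24 for Ifit1, −0.032 to 0.27 for Ifit3 and −0.20 to 0.061 for Ifitm2. It ran from −0.080 to 0.022 for Ifngr1, −0.00082 to 0.080 for Ifngr2, −0.0065 to 0.15 for Irf1, −0.17 to 0.35 for Mx1 and −0.093 to 0.062 for Oas1a. It ran from −0.058 to 0.093 for Parp14, −0.10 to 0.061 for Parp9, −0.082 to 0.18 for Tap1 and −0.14 to 0.16 for Usp18.

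Apart from Irf7, the replicate block changed no call among the members. With 4 pools a group, the 95% interval of the log2 fold change ran from −0.63 to 0.85 for Mx1, the member with the widest, and from 0.051 to 0.23 for Stat2.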

Other observations

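MHC class II genes present peptides to helper T cells and mark antigen-presenting cells. Of 10 class II pathway genes 9 were tested and 0 passed (edgeR; 0 at an unadjusted p under 0.05, 0 in DESeq2 and limma-voom), with 2 above and 7 below 0 and a median log2 fold change of −0.028. The list summed to 123.0, 106.5, 135.7 and 121.3 CPM in HDM 1 to 4, and to 161.0, 125.9, 110.3 and 95.9 CPM in saline 1 to 4. Saline 1 was highest and saline 4 lowest, as for the macrophage markers, and the HDM libraries lay between them. H2-Aa, a class II chain, had a log2 fold change of −0.18 and its partner chain H2-Ab1 0.20, and Ciita, the transactivator of the class II genes, was at 0.934 ± 0.341 CPM in HDM and 1.08 ± 0.279 CPM in saline (SD, n = 4 each).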
